A study of Rattus norvegicus with 42 samples.

Results

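The core circadian clock genes are Per1, Per2, Per3, Cry1, Cry2, Arntl (also named Bmal1), Clock, Npas2, Nr1d1 and Nr1d2, described here in rat liver during infusion of corticosterone (CORT). Members were taken by gene name from the table of RNA polymerase II occupancy, and the Ensembl identifier given there led to each gene's RNA counts. They were 10 of the 22929 genes in the RNA table and held 30 of the 60999 polymerase regions. Of the 3981 regions bound by the glucocorticoid receptor (GR), 5 were centred within 50 kb of a transcription start site (TSS) of a member. Each of the 10 genes passed the filter on RNA reads, and each of the 30 regions had tags.

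All animals were male Sprague Dawley rats without adrenal glands, whose age is not given in the sources used here. After surgery every rat, controls included, had a single dose of dexamethasone and then a little CORT in its drinking saline, which was withdrawn before the infusion. Infusions lasted 3 h and fell around lights-off. Pulsatile CORT (PULS) was given for 20 min of every 60 min. Constant CORT (CONS), matched for dose, ran at a lower steady rate after a brief faster start. Vehicle (VEH) was the cyclodextrin carrier in saline. Chromatin immunoprecipitation used antibodies to GR or to polymerase II phosphorylated on serine 2 (pSer2 Pol2), the elongating form, and each library pooled 6 rats. For each antibody the groups were PEAK_140 (pulsatile CORT at 140 min, the pulse peak), NADIR_180 (pulsatile CORT at 180 min, the nadir), CONS_140, CONS_180 and pulsatile VEH, each of 2 libraries. The VEH libraries were taken at 140 min and at 180 min and formed 1 group, so time and library cannot be told apart within it. RNA libraries, all at 180 min, formed 4 groups of 3, PULS_VEH, PULS_CORT, CONS_VEH and CONS_CORT. The labels do not state that each RNA library is a separate rat, and p-values measure the spread between libraries.

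In the mammalian clock, Clock or its relative Npas2 pairs with Arntl and switches on the Per and Cry genes, whose proteins return to block the pair. Nr1d1 and Nr1d2 (REV-ERB alpha and beta) form an interlocking loop as nuclear receptors that repress Arntl and other genes. Liver clocks are reset by feeding and by glucocorticoids, and Per1 is a textbook direct target of GR.

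RNA libraries held between 3956379 and 7777219 reads. Depth was 4938473 to 9326927 tags in the pSer2 Pol2 libraries and 2051977 to 6715803 tags in the GR libraries. The 10 members together ranged from 629 reads over the 12 libraries for Per3 to 7176 reads for Clock. Per1 had 991 reads, with 11 in its lowest library. Nr1d1 overlaps the gene Thra in the RefSeq annotation of GRCr8. The strand setting used for counting is not given in the sources used here, so reads of Nr1d1 and Thra may not be fully separated. Tags of pSer2 Pol2 carry no strand of transcription, so those over Nr1d1 may in part belong to Thra. Per2, Cry1, Cry2, Clock and Npas2 likewise overlap uncharacterised loci in that annotation.

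Promoters are printed for the genes that RNA or GR values below turn on, because GR regions lay near Per1, Per3, Arntl and Nr1d1, and because Per1, Per2, Cry2, Npas2 and Nr1d1 changed in RNA. RefSeq's promoter table (build GRCr8, 250 bases before to 50 bases after a start) matched 9 of the 10 members with 11 promoters. Cry1 is named only. Motifs searched on both strands were the E-box CACGTG, the E'-box CACGTT, the D-box TTATGTAA, the ROR element core TAGGTCA, the cAMP response element TGACGTCA and the GR element GNACANNNTGTNC. Capitals mark the matches in the sequences, each written 5' to 3' on the gene's strand.
Per1 promoter, chr10:54304126-54304425 (GRCr8, plus strand): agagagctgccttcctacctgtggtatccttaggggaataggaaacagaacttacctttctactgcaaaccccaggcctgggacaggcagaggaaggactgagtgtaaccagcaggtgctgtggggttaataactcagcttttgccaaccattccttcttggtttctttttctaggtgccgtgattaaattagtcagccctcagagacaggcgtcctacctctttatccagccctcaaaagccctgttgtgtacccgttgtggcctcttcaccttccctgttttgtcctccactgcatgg
Per2 promoter, chr9:99496944-99497243 (GRCr8, minus strand): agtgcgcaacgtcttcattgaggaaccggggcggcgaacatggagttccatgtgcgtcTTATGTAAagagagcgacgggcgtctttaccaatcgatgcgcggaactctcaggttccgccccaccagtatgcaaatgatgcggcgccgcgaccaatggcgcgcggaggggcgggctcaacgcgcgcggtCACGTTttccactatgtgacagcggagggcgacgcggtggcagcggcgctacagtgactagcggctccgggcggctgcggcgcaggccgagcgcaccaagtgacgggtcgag
Per3 promoter, chr5:166777751-166778050 (GRCr8, minus strand): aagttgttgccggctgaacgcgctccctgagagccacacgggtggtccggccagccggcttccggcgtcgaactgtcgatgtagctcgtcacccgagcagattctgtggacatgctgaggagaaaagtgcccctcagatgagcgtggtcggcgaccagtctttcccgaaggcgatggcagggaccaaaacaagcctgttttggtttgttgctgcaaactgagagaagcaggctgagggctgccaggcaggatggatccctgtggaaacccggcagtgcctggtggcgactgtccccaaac
Cry2 promoter, chr3:98860388-98860687 (GRCr8, minus strand): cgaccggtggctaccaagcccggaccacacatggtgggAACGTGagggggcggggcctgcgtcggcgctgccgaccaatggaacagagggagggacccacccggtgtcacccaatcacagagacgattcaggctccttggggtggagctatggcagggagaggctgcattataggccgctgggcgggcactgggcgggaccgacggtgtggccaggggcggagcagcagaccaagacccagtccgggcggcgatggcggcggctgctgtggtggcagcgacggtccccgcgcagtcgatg
Arntl promoter, chr1:176766078-176766377 (GRCr8, plus strand): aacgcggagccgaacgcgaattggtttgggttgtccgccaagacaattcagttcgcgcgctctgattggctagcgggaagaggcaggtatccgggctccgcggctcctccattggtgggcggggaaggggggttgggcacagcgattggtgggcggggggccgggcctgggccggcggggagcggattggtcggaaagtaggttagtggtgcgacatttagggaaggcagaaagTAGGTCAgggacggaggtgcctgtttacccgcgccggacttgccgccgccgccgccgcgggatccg
Npas2 promoter, chr9:48959315-48959614 (GRCr8, plus strand): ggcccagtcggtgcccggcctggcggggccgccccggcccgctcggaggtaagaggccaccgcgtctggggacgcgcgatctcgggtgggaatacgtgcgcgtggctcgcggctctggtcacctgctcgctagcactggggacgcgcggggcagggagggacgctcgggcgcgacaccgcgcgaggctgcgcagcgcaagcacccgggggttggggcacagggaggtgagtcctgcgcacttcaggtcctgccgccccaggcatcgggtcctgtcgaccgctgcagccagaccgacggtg
Nr1d1 upstream promoter, chr10:84231763-84232062 (GRCr8, minus strand): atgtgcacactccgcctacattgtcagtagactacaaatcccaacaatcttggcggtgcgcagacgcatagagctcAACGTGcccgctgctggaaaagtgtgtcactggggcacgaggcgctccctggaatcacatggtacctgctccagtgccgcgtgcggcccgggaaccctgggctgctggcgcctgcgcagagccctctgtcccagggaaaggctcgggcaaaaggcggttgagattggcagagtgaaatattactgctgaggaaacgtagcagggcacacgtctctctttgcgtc
Nr1d1 internal promoter, chr10:84229405-84229704 (GRCr8, minus strand): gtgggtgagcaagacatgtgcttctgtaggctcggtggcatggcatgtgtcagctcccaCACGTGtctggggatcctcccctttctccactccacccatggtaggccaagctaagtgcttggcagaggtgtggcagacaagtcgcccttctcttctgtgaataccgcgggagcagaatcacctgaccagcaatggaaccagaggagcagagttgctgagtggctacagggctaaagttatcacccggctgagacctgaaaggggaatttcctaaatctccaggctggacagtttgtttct
The Per2 promoter held an E'-box at −62 and a D-box at −192 from the start site. Cry2 had an E'-box at −212, and Arntl a ROR core at −16. Of the Nr1d1 promoters, the upstream one had an E'-box at −174 and the internal one an E-box at −191. The promoters of Per1, Per3, Npas2 and Nr1d2 and both of Clock held none of the 6 motifs. An E'-box was thus found in 3 of the 11 promoters, against 4.83% of all 33469 rat promoters in the table. E-boxes were in 1 of 11 (6.42% of all), D-boxes in 1 (0.893%) and ROR cores in 1 (2.63%). The cAMP response element (1.83% of all) and the GR element (0.439% of all) were in 0 of the 11. A match is a run of letters and says nothing of binding, and the GR regions, placed on rn6, were not read as sequence here.

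Per1, Per2 and Per3 encode the Period proteins of the repressor complex. Per1 (ENSRNOG00000007387) stood at 3.26, 2.08 and 6.22 CPM (counts scaled to library size) in PULS_VEH and at 31, 24.5 and 20.6 CPM in PULS_CORT. In CONS_VEH it was 2.44, 4.41 and 3.80 CPM, and in CONS_CORT 27.2, 30.7 and 31.5 CPM. All 6 CORT libraries were above all 6 VEH libraries. Per1 rose by 2.74 on the log2 scale (SE 0.27, 6.69-fold, adjusted p = 3.29e-05) under PULS by edgeR's quasi-likelihood test with Benjamini-Hochberg adjustment over 14092 genes. Under CONS it rose by 3.12 (SE 0.27, 8.72-fold, adjusted p = 1.23e-06). Calls required an adjusted p under 0.05 together with a change above 1.5-fold. In bulk liver, fewer cells of a type and less RNA per cell cannot be told apart.

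Per2 (ENSRNOG00000020254) measured 16.8, 10.0 and 12 CPM in PULS_VEH and 12.1, 14.6 and 16.2 CPM in PULS_CORT. These ranges overlapped, and the log2 difference of 0.13 was not called. In CONS_VEH it was 19.3, 11 and 11.9 CPM, against 8.53, 6.47 and 6.81 CPM in CONS_CORT. The CONS_CORT libraries lay below every other library of the 12, and Per2 fell by 1.00 on the log2 scale under CONS (SE 0.24, adjusted p = 0.0119). That call was lost without CONS_VEH replicate 1, the highest control (log2 difference −0.67, adjusted p = 0.0863), and without CONS_CORT replicate 2 (adjusted p = 0.0514), within a range of 0.0018 to 0.0863 over 18 alternatives. Per3 (ENSRNOG00000018413) was called in neither pattern. Its values were 7.43, 15.9 and 4.56 CPM in PULS_VEH and 6.93, 7.91 and 7.46 CPM in PULS_CORT. They were 10.4, 7.05 and 8.51 CPM in CONS_VEH and 21.9, 9.43 and 8.06 CPM in CONS_CORT. PULS_VEH replicate 2 and CONS_CORT replicate 1 stood apart as high libraries, and the groups overlapped.

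The Cry genes encode the cryptochromes, the strongest transcriptional repressors of the loop. Cry1 (ENSRNOG00000006622) was 12.5, 8.50 and 10.6 CPM in PULS_VEH and 16.9, 20.5 and 24.9 CPM in PULS_CORT. In CONS_VEH it was 11, 9.70 and 13.2 CPM, and in CONS_CORT 9.95, 8.02 and 7.52 CPM. The 3 PULS_CORT libraries were the highest of the 12, whereas the CONS groups overlapped at their edge. Cry1 rose by 0.97 under PULS (SE 0.19, 1.96-fold, adjusted p = 0.00782), and its CONS difference of −0.42 (SE 0.20) was not called (adjusted p = 0.203). Cry2 (ENSRNOG00000007478) was 23.2, 20.6 and 21.6 CPM in PULS_VEH and 15.8, 17.1 and 18.1 CPM in PULS_CORT. Its values were 33, 26 and 30.2 CPM in CONS_VEH and 18.3, 13.8 and 13.3 CPM in CONS_CORT. Each CORT group lay below its own VEH group without overlap. Cry2 fell by 0.99 under CONS (SE 0.14, adjusted p = 0.00021). Its PULS difference of −0.36 was not called (adjusted p = 0.187). Cry2 averaged 17.0 CPM in PULS_CORT and 15.1 CPM in CONS_CORT, against 21.8 CPM in PULS_VEH and 29.7 CPM in CONS_VEH.

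**Figure D1:**
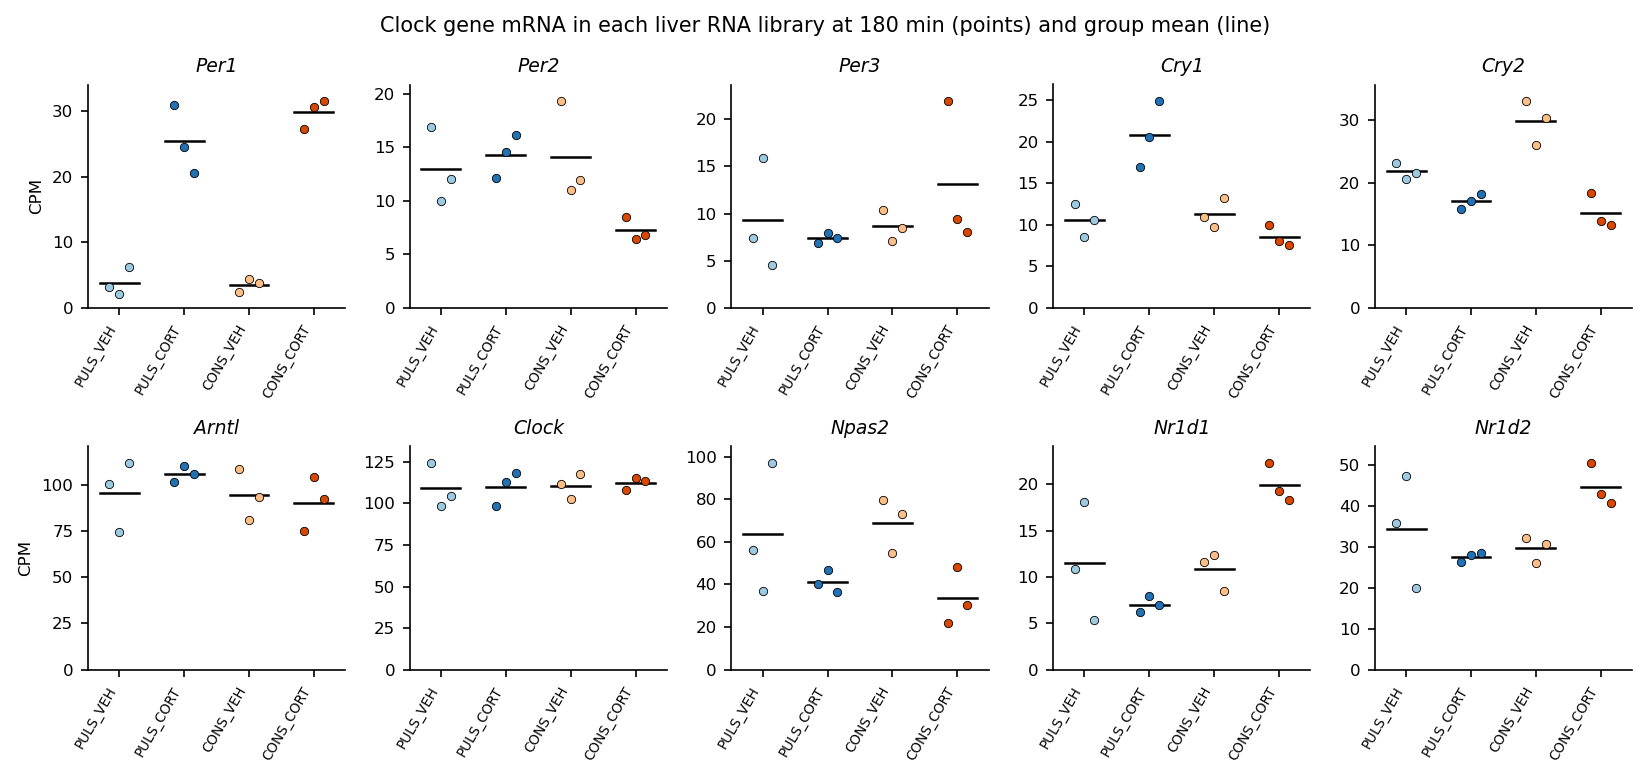
Each panel plots the CPM of a clock gene in the 12 RNA libraries. Points mark libraries, and a line marks the mean of the 3 libraries of a group. Per1 lies between 20.6 and 31.5 CPM in the 6 CORT libraries and between 2.08 and 6.22 CPM in the 6 VEH libraries, while Cry1 is highest in PULS_CORT and Nr1d1 in CONS_CORT.

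Arntl, Clock and Npas2 encode the activators. Arntl (ENSRNOG00000014448) averaged 95.8 ± 19.4 CPM (SD, n = 3) in PULS_VEH, 106 ± 4.23 in PULS_CORT, 94.4 ± 13.8 in CONS_VEH and 90.5 ± 14.6 in CONS_CORT. The 4 groups overlapped, with log2 differences of 0.15 under PULS and −0.06 under CONS. Clock (ENSRNOG00000002175) had group means of 109 to 112 CPM, with single libraries from 98.2 to 125 CPM. Its log2 differences were 0.01 and 0.02. Npas2 (ENSRNOG00000013408), the stand-in for Clock, was 56.3, 37.0 and 97.3 CPM in PULS_VEH and 40.2, 46.7 and 36.3 CPM in PULS_CORT. It was 79.5, 54.7 and 73.1 CPM in CONS_VEH and 21.7, 48.1 and 30.4 CPM in CONS_CORT. The CONS groups were apart, and the PULS groups overlapped because PULS_VEH replicate 2 was low. Npas2 fell by 1.04 under CONS (SE 0.29, adjusted p = 0.0276), and its PULS difference of −0.63 was not called (adjusted p = 0.253). Leaving out CONS_VEH replicate 1 (adjusted p = 0.0899), CONS_VEH replicate 3 (0.08), CONS_CORT replicate 1 (0.121) or CONS_CORT replicate 3 (0.1) ended the Npas2 call, in a range of 0.00147 to 0.121 over 18 alternatives.

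Nr1d1 and Nr1d2 encode the repressing nuclear receptors. Nr1d1 (ENSRNOG00000009329) was 10.9, 18.1 and 5.39 CPM in PULS_VEH and 6.16, 7.91 and 6.96 CPM in PULS_CORT. In CONS_VEH it was 11.6, 12.3 and 8.51 CPM, and in CONS_CORT 22.3, 19.3 and 18.3 CPM. The CONS_CORT libraries were the highest of the 12, and the PULS groups overlapped. Nr1d1 rose by 0.88 under CONS (SE 0.27, 1.84-fold, adjusted p = 0.0443), and its PULS difference of −0.73 was not called (adjusted p = 0.212). The CONS call was near the threshold and remained in 2 of the 12 fits that left out a library (log2 0.74 to 0.96), those without PULS_VEH replicate 2 or replicate 3, with adjusted p from 0.00606 to 0.162 over 18 alternatives. Nr1d2 (ENSRNOG00000046912) was 35.7, 47.2 and 19.9 CPM in PULS_VEH and 26.2, 27.9 and 28.6 CPM in PULS_CORT. It was 32.1, 26 and 30.8 CPM in CONS_VEH and 50.6, 42.8 and 40.7 CPM in CONS_CORT. The CONS groups did not overlap, yet the difference of 0.58 was not called (adjusted p = 0.0805). Without PULS_VEH replicate 3, the lowest library for both genes, the PULS differences of Nr1d1 (−1.05, adjusted p = 0.0263) and Nr1d2 (−0.59, adjusted p = 0.0496) were called. These differences ran from −1.05 to −0.24 (Nr1d1) and from −0.59 to −0.02 (Nr1d2) over the 12 fits that left out a library. Over the 18 alternatives the adjusted p ran from 0.0263 to 0.742 for Nr1d1 and from 0.0496 to 0.973 for Nr1d2.

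Counted together, 2 of the 10 clock genes rose under PULS and 0 fell, where 4.23% of the 14092 genes tested were called (252 up, 344 down). Their median log2 difference was −0.16, against −0.01 over all genes. Under CONS 2 rose and 3 fell, where 9.20% of all genes were called (627 up, 670 down). The median was −0.02, against −0.01 over all genes. The count under CONS was 2 without CONS_VEH replicate 1 and 3 without CONS_VEH replicate 3 or any CONS_CORT replicate. Per1 was called in both patterns, with each pattern having its own VEH group.

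Whether the clock genes responded differently to the 2 patterns was tested as the PULS response minus the CONS response. For Cry1 this was 1.39 (SE 0.28, adjusted p = 0.0711), the lowest adjusted p of the 10. Nr1d1 had −1.61 (SE 0.42, adjusted p = 0.119) and Per2 1.13 (SE 0.34, adjusted p = 0.162). Cry2 followed with 0.63 (adjusted p = 0.208) and Nr1d2 with −0.90 (adjusted p = 0.212). Per1 differed by −0.38 (adjusted p = 0.755). By edgeR 0 of the 10 were called, where 0.0284% of all genes were, and 5 of the 10 had an unadjusted p under 0.05, as had 1749 of the 14092 genes. DESeq2 also called 0, where it called 1.53% of all genes, having given no adjusted p to 5 of the 10. With no filter on low counts Cry1 (adjusted p = 0.00869) and Nr1d1 (adjusted p = 0.0175) were called, where 1.17% of all genes were. Cry1 was called without PULS_CORT replicate 1 (1.53, adjusted p = 0.0404) or CONS_VEH replicate 1 (1.42, adjusted p = 0.0299), and Nr1d1 without PULS_VEH replicate 3 (−1.93, adjusted p = 0.032). The shares of all genes called in those 3 fits were 0.177%, 2.05% and 0.0710%. Over 18 alternatives of this contrast the adjusted p ran from 0.00869 to 0.183 for Cry1 and from 0.0175 to 0.269 for Nr1d1.

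The CORT groups were also set against each other directly, a comparison chosen after the values were seen. Cry1 was higher in PULS_CORT than in CONS_CORT by 1.29 (SE 0.20, 2.44-fold, adjusted p = 0.00454). Nr1d1 was lower by 1.51 (SE 0.30, 2.85-fold, adjusted p = 0.0245). No library of either gene crossed into the other CORT group. These were 2 of the 10 clock genes, where 0.887% of all genes were called (38 higher, 87 lower in PULS_CORT). Per2 differed by 0.98 (adjusted p = 0.0796) and Nr1d2 by −0.70 (adjusted p = 0.165), and both were without overlap. Cry2 differed by 0.18 (adjusted p = 0.76), and its CORT groups overlapped. Between the VEH patterns edgeR called 0 of the 10, where 0% of all genes were called. An unadjusted p under 0.05 was found for 1 member, Cry2 (−0.46, adjusted p = 0.36), and for 1286 genes. DESeq2 called 0 of the 10 there as well, where it called 0.156% of all genes.

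**Figure D2:**
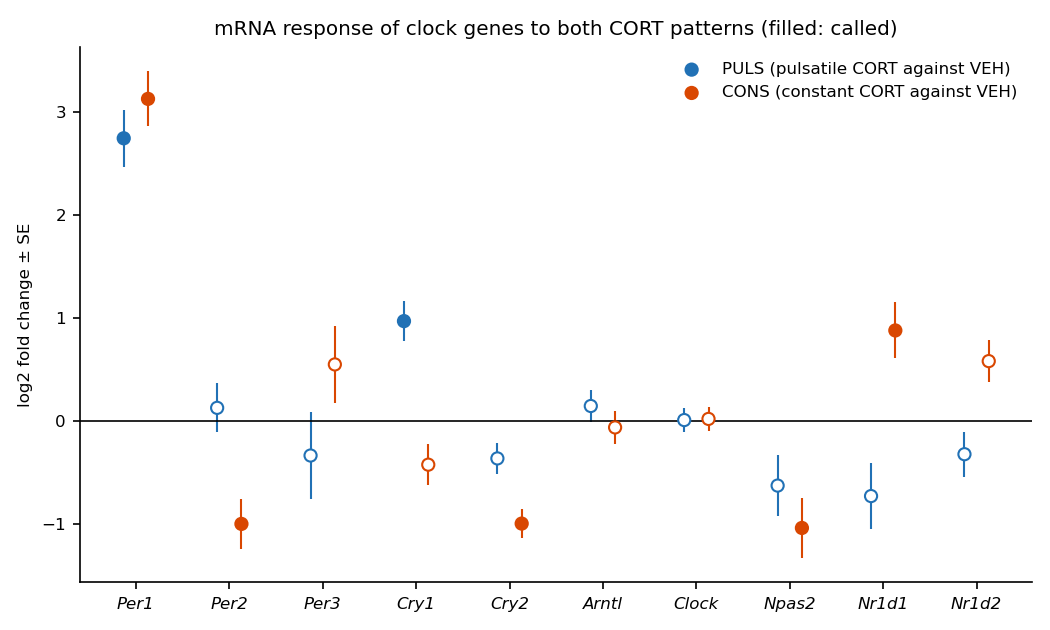
The log2 difference from VEH with its SE is plotted for each clock gene under PULS and under CONS, with filled points for called differences. Per1 sits highest in both patterns at 2.74 and 3.12, Cry1 is filled under PULS, and Per2, Cry2, Npas2 and Nr1d1 are filled under CONS.

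Occupancy by pSer2 Pol2 was read from log2 values over the gene body, taking for each gene the region with the highest mean. The Per1 region, chr10:55687050-55695994 (rn6, plus strand), had 4.79 and 3.03 in VEH, 7.17 and 6.76 at PEAK_140, and 6.38 and 5.52 at NADIR_180. It had 8.26 and 7.47 at CONS_140 and 7.69 and 6.97 at CONS_180. All 8 CORT libraries were above both VEH libraries. By limma over 38315 regions, Per1 occupancy rose at PEAK_140 by 3.05 (SE 0.56, adjusted p = 0.0267), at CONS_140 by 3.96 (SE 0.56, adjusted p = 0.00772) and at CONS_180 by 3.42 (SE 0.56, adjusted p = 0.0436). At NADIR_180 the difference was 2.04 and was not called (adjusted p = 1.00). Both Per1 regions gave the same calls. These comparisons share the VEH libraries, so their values are not independent.

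The Per1 calls in pSer2 Pol2 rested on the pooled spread of the 10 libraries. A fit to only the groups compared left the differences unchanged and made none of them (adjusted p = 0.748, 0.608 and 0.997). That fit called 0 of all 38315 regions at PEAK_140, 0 at CONS_140 and 13 at CONS_180. It therefore says little of Per1 in particular. Without a trend of variance the PEAK_140 (adjusted p = 0.106) and CONS_180 (adjusted p = 0.145) calls were also lost. Leaving out a library kept the PEAK_140 call in 1 of 10 fits (log2 2.18 to 3.93) and the CONS_180 call in 1 of 10 (2.54 to 4.30), in both cases the fit without VEH at 140 min. The CONS_140 call remained in 6 of 10 (3.08 to 4.83) and was lost without VEH at 180 min (adjusted p = 0.0722), either NADIR_180 replicate (0.0717 and 0.0738) or CONS_140 replicate 1 (0.3). Across alternatives the adjusted p ran from 0.00345 to 0.748 for PEAK_140, from 0.00116 to 0.608 for CONS_140 and from 0.00419 to 0.997 for CONS_180.

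Of the other 9 clock genes none was called in pSer2 Pol2 against VEH. At PEAK_140 the count was thus 1 of 10, where 0.989% of the 38315 regions were called, and the members' median was −0.24 (−0.15 after centring and 0.00 with quantile normalisation) against −0.05 over all regions. Cry2 had 5.81 and 4.9 in VEH and 3.86 and 4.30 at PEAK_140, without overlap, and the difference of −1.28 had an adjusted p = 0.859. Arntl had 6.11 and 5.46 in VEH and 4.75 and 4.67 at PEAK_140, a difference of −1.07 (adjusted p = 0.777). Per2 was 4.56 and 4.30 in VEH and 3.58 and 3.57 at PEAK_140 (−0.85, adjusted p = 0.894). None of these 3 differences was called. The libraries of the 3 genes lay apart, and how many of all regions did so was not counted. At NADIR_180 limma called 0 of the 10, where 0.00522% of regions were called, and an unadjusted p under 0.05 was found for 2 members and 555 regions. Medians were 0.15 for the members and 0.01 for all regions.

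At CONS_140 the count was 1 of 10, where 0.788% of regions were called. The median of all regions stood at 0.15 there and at 0.01 after centring each library on its median, with which the Per1 difference was 3.81. Nr1d2 had 4.89 and 3.72 in VEH and 6.30 and 4.86 at CONS_140, overlapping, with a difference of 1.28 (adjusted p = 0.536) and of 1.14 after centring, though the lowest of its 3 regions had 0.00. The members' median was 0.27, and 0.13 after centring or −0.02 with quantile normalisation. At CONS_180 Per1 was again 1 of 10, where 0.214% of regions were called, with medians of −0.06 for the members and 0.01 for all regions.

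Peak and nadir of the pulsatile infusion were compared in pSer2 Pol2, first for Nr1d1. Its region, chr10:86683875-86690815 (rn6, minus strand), had 7.97 and 7.88 in VEH, 7.97 and 7.49 at PEAK_140, and 9.37 and 8.85 at NADIR_180. It had 8.66 and 7.87 at CONS_140 and 7.62 and 7.61 at CONS_180. The NADIR_180 libraries were the highest of the 10. Tags from the overlapping gene Thra may be among these values. PEAK_140 minus NADIR_180 was −1.38 (SE 0.36, adjusted p = 0.235), and −1.28 (adjusted p = 0.0471, a call) with all libraries set to a common median, within a range of 0.0471 to 1.00 over the alternatives. Arntl followed with −1.23 (adjusted p = 0.608), from 4.75 and 4.67 at PEAK_140 and 6.13 and 5.75 at NADIR_180. Per1 had 1.02 in this comparison, and 1.43 with quantile normalisation. By limma 0 of the 10 were called, where 0.480% of regions were, and 2 members and 2098 regions had an unadjusted p under 0.05. The median of the members was −0.35, against −0.08 over all regions before centring and 0.02 after it. Peak and nadir also differ by time since the start, which the constant infusion shares.

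At 180 min, CONS_180 minus NADIR_180 in pSer2 Pol2 was −1.50 for Nr1d1 (SE 0.36, adjusted p = 0.352), and the groups did not overlap. Per1 had 1.38 (adjusted p = 1.00). Limma called 0 of the 10, where 0.170% of regions were called, and 2 members and 876 regions had an unadjusted p under 0.05. The members' median was −0.22, against 0.00 over all regions.

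The time by pattern comparison took the peak minus nadir difference of the pulsatile infusion and subtracted the difference between 140 and 180 min of the constant infusion. In pSer2 Pol2 it was −2.03 for Nr1d1 (SE 0.51, adjusted p = 0.267), −1.94 for Nr1d2 (−0.51 at the other extreme of its 3 regions), −1.92 for Arntl and −1.73 for Cry2. After centring these were −1.75, −1.66, −1.64 and −1.45, with the median of all regions moving from −0.30 to −0.02. Quantile normalisation gave −1.57, −1.26, −1.13 and −0.97. By limma 0 of the 10 were called, where 0.0574% of regions (22) were, and 4 members and 2455 regions had an unadjusted p under 0.05. In the fit with the replicate block, 41 regions and 0 of the 10 members were called. Without CONS_140 replicate 2 Nr1d1 was called (−2.43, adjusted p = 0.00668, in a range of 0.00668 to 0.885 over the alternatives), in a fit that called 20.1% of all regions.

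**Figure D3:**
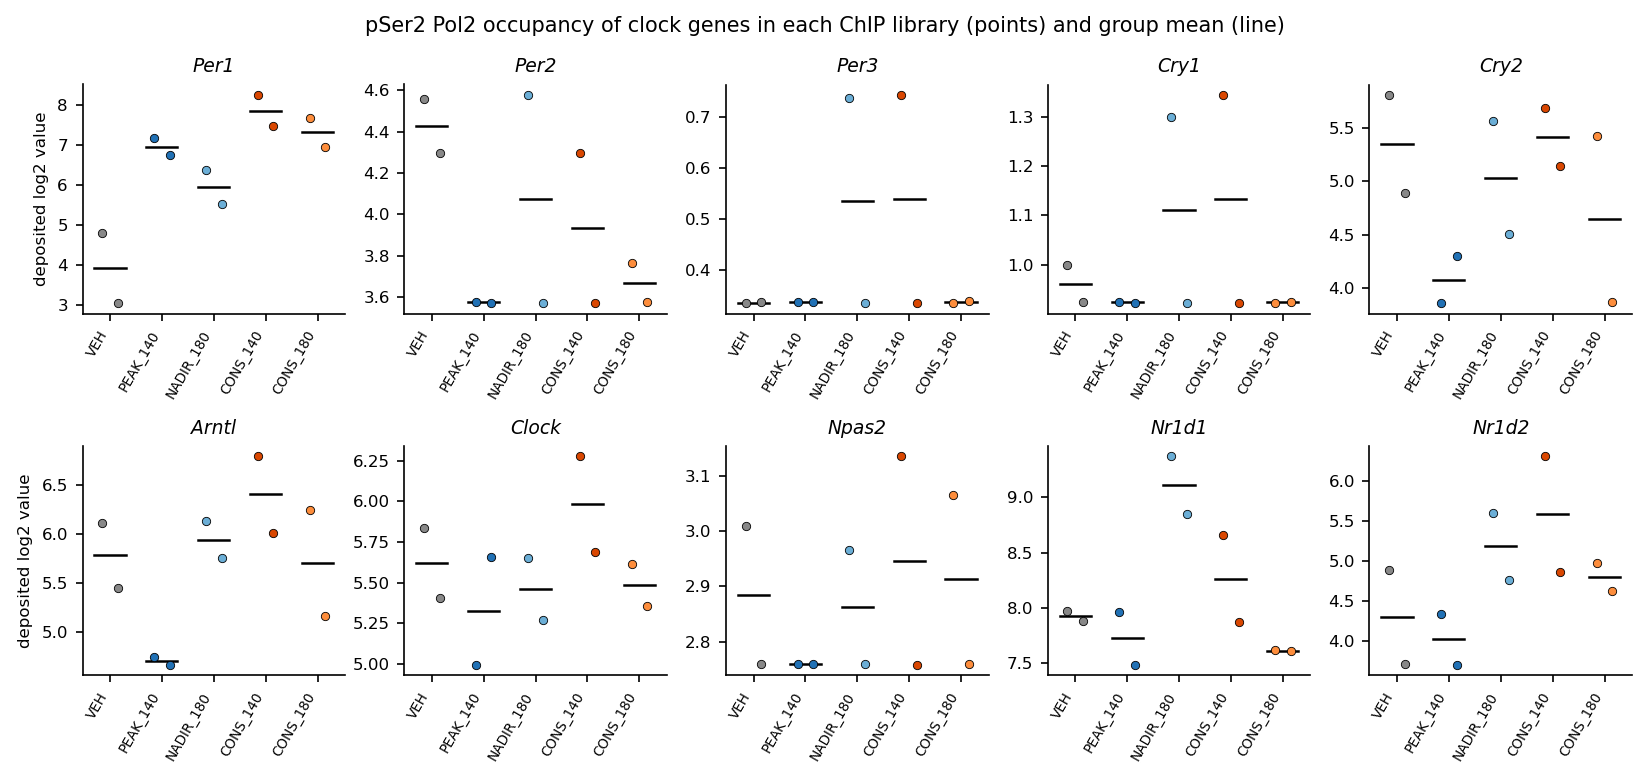
Each panel plots the deposited log2 pSer2 Pol2 value of a clock gene's region in the 10 libraries, with points for libraries and a bar for the mean of the 2 libraries of a group. Per1 is above VEH in all 8 CORT libraries, and Nr1d1 is highest in both NADIR_180 libraries.

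Low signal limited some members in pSer2 Pol2. The values of Per3 lay within 0.05 of their lowest in 8 of 10 libraries, those of Cry1 in 7, Npas2 in 6 and Per2 in 5, which bounds the size of any drop there. Both PEAK_140 libraries of Per2 were at that floor. Cry1, called in RNA under PULS, ran from 0.92 to 1.34 in pSer2 Pol2. Cry2 and Nr1d2 had 2 such libraries each.

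GR enrichment was measured at 5 regions near 4 clock genes. Per1 had a region at −3316 b from its TSS (chr10:55683421-55684046, rn6) and another at −1106 b (chr10:55685632-55686257), both annotated as intergenic. Per3 had a region at −532 b in its promoter (chr5:168123730-168124125). In Arntl the region lay in an intron 30802 b downstream of the TSS (chr1:178069553-178070178). The Nr1d1 region (chr10:86689486-86690013) was intronic, at −1020 b from an internal start site. A window of 10 kb kept 4 of these regions, all but that of Arntl, and one of 100 kb added none. The nearest GR region was 159 kb away for Cry1, 168 kb for Nr1d2, 235 kb for Npas2, 356 kb for Per2, 426 kb for Clock and 438 kb for Cry2. In the authors' peak lists both Per1 regions and that of Arntl were present at PEAK_140, CONS_140 and CONS_180. The Per3 region was listed at PEAK_140 and the Nr1d1 region at CONS_140. The lists of VEH (118 peaks) and NADIR_180 (73 peaks) held none of the 5, and were far shorter than those of PEAK_140 (3210), CONS_180 (2428) and CONS_140 (1723).

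The upstream Per1 region at 3.3 kb had log2 GR enrichment of 2.38 and 3.17 in VEH, 6.88 and 6.94 at PEAK_140, and 5.51 and 5.54 at NADIR_180. It had 8.21 and 7.84 at CONS_140 and 6.83 and 6.61 at CONS_180. The Per1 region at 1.1 kb had 3.09 and 2.11 in VEH, 6.35 and 6.91 at PEAK_140, 5.16 and 4.46 at NADIR_180, 6.93 and 6.76 at CONS_140 and 6.24 and 6.57 at CONS_180. In both regions all 8 CORT libraries were above both VEH libraries, and NADIR_180 was the lowest CORT group. The Arntl region had 1.98 and 2.08 in VEH, 6.17 and 6.07 at PEAK_140, 3.64 and 2.29 at NADIR_180, 5.63 and 5.99 at CONS_140 and 5.08 and 4.88 at CONS_180. PEAK_140, CONS_140 and CONS_180 were clear of VEH and of NADIR_180 at Arntl. Per3 had −0.89 and −1.0 in VEH, 2.97 and 2.33 at PEAK_140, −0.84 and −0.71 at NADIR_180, 1.47 and 1.21 at CONS_140 and 1.63 and −1.06 at CONS_180. Nr1d1 had −0.78 and −0.91 in VEH, −0.58 and 2.59 at PEAK_140, 1.36 and 2.00 at NADIR_180, 3.90 and 2.75 at CONS_140 and 2.55 and 2.65 at CONS_180. The PEAK_140 libraries of Nr1d1 disagreed, as did the CONS_180 libraries of Per3.

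These GR differences must be read against the shift of the GR regions as a whole, which was large at PEAK_140, CONS_140 and CONS_180 and smaller at NADIR_180. Relative to VEH, the median of all 3981 regions was 4.17 for PEAK_140, 3.46 for CONS_180, 3.38 for CONS_140 and 0.84 for NADIR_180. Centring each library on its own median took these to −0.45, −0.60, −0.73 and −0.34. Limma on centred values called 0 of the 5 clock gene regions in all 7 GR comparisons, with at most 3 of the 5 at an unadjusted p under 0.05, where the share of all regions called ran from 0% (NADIR_180 and CONS_180 against NADIR_180) to 13.4% (PEAK_140). With quantile normalisation, the other scaling run, it called 0 to 2 of the 5, where 3.29% (NADIR_180) to 26.1% (PEAK_140) of all regions were called. Centring takes the same amount from every region of a library, so a centred value places a region against the others and is not its own direction. With quantile normalisation the Per1 regions kept positive values at PEAK_140 (0.56 and 0.30) and CONS_180 (0.99 and 0.74). The Per1 region at 3.3 kb was then called at CONS_140 (1.83, adjusted p = 0.00828) and at NADIR_180 (1.78, adjusted p = 0.0217). That at 1.1 kb was not called there (0.80 and 1.21).

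As deposited, 4 of the 5 regions rose at PEAK_140, all 4 turning negative after centring, where 80.5% of all GR regions were called. The Per1 regions rose by 4.13 (SE 0.33, adjusted p = 2.38e-05) and 4.03 (SE 0.44), turning to −0.48 and −0.59 after centring. Arntl rose by 4.09 (SE 0.51, −0.53 after centring) and Per3 by 3.59 (SE 0.93, −1.02 after centring). Quantile normalisation gave 0.18 for Arntl and 0.05 for Per3, neither of them called. Nr1d1 had 1.85 (adjusted p = 0.117, −2.76 after centring) and was not called. Its value was 3.44 without PEAK_140 replicate 1, and ran from 0.27 to 3.44 over the fits that left out a library. At CONS_140 4 of the 5 rose as deposited, 1 of them turning negative after centring, where 65.1% of all were called. The Per1 regions rose by 5.25 (SE 0.33) and 4.25 (SE 0.44), and stayed positive after centring at 1.14 and 0.14. Arntl rose by 3.78 (SE 0.51), which centring turned to −0.33, and Nr1d1 by 4.17 (SE 1.01, 0.06 after centring). Their values under quantile normalisation were 0.22 and 0.43, neither of them called. Per3 had 2.28 (adjusted p = 0.0568, −1.83 after centring) and was called without either CONS_180 replicate (adjusted p = 0.0165 and 0.0152), with no trend (0.0422) and in a fit to only the groups compared (0.0279), in a range of 0.0152 to 0.736 over the alternatives.

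At CONS_180 4 of the 5 rose as deposited and were negative after centring, where 68.2% of all GR regions were called. The Per1 regions rose by 3.95 and 3.81, Arntl by 2.96 and Nr1d1 by 3.44 (adjusted p = 0.0151), and centring turned all 4 negative (−0.12, −0.25, −1.11 and −0.62). The Nr1d1 call was lost without either VEH library (adjusted p = 0.0534 and 0.0673) or either CONS_180 replicate (0.0609 and 0.0621), in a range of 0.00244 to 0.869 over the alternatives. Per3 had 1.23 (adjusted p = 0.263, −2.83 after centring) and was not called. Its value was 2.57 without CONS_180 replicate 2, and ran from −0.12 to 2.57 over the fits that left out a library. At NADIR_180 2 of the 5 rose, both at Per1, where 7.79% of all were called. Their differences were 2.75 (SE 0.33, adjusted p = 0.00186) and 2.21 (SE 0.44, adjusted p = 0.0154), and 1.57 and 1.03 after centring. The second was lost without a variance trend (adjusted p = 0.0793) and fell to 1.86 without NADIR_180 replicate 1. A fit to only the groups compared called no GR region at all. It lost both Per1 calls (adjusted p = 0.128 and 0.206), with their differences unchanged. Their adjusted p ran from 0.00041 to 0.449 and from 0.00501 to 0.66 over the alternatives. Nr1d1 had 2.52 at NADIR_180 (SE 1.01, 1.34 after centring), with both libraries above VEH, and was not called (adjusted p = 0.228). Arntl, with 0.94 at NADIR_180 (−0.24 after centring), was called without NADIR_180 replicate 2 (1.62, adjusted p = 0.0202, in a range of 0.0202 to 1.00).

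Between peak and nadir 4 of the 5 GR regions were higher at PEAK_140 as deposited and lower after centring, where 69.3% of all were called and the median of all was 3.2. Per3 (3.43), Arntl (3.15) and the Per1 regions (1.38 at 3.3 kb and 1.82 at 1.1 kb) were higher, and each turned negative after centring (−0.01, −0.29, −2.05 and −1.62). The Per1 differences were thus below the median change of all regions, and that at 3.3 kb was not called without a variance trend (adjusted p = 0.0514). The Per3 call was lost without PEAK_140 replicate 1 (adjusted p = 0.065) or NADIR_180 replicate 2 (adjusted p = 0.0506), in a range of 0.00403 to 0.996. Nr1d1 had −0.67 (adjusted p = 0.573), after centring −4.11 (adjusted p = 0.0622), and with quantile normalisation −2.69 and a call (adjusted p = 0.0398). Quantile normalisation left Per3 (0.50) and Arntl (0.21) positive and gave −0.91 for the Per1 region at 1.1 kb, none of them called. It also made the Per1 region at 3.3 kb lower at the peak (−1.22, adjusted p = 0.0489). Over the alternatives the adjusted p ran from 0.0398 to 0.846 for Nr1d1 and from 0.000897 to 0.122 for that Per1 region.

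At 180 min 3 of the 5 regions were higher in CONS_180 than in NADIR_180 as deposited and lower after centring, where 49.6% of all were called and the median of all was 2.49. Per1 had 1.20 and 1.6 and Arntl 2.02, and after centring −1.68, −1.28 and −0.87. The count fell to 0 without either CONS_180 replicate and to 1 without NADIR_180 replicate 2. Both Per1 calls were lost without a variance trend (adjusted p = 0.0989 and 0.0574) and that of Arntl in a fit to only the groups compared (0.0761), with adjusted p over the alternatives from 0.0028 to 0.258, 0.00638 to 0.439 and 0.00117 to 0.693. In the time by pattern comparison 1 of the 5, Arntl, was called (2.32, SE 0.72, adjusted p = 0.0315), where 44.0% of all regions were called and their median was 3.11. Centring turned the Arntl value to −1.06. With quantile normalisation Arntl had −0.33 and was not called, and the Per1 region at 3.3 kb, at 0.08 as deposited, was called instead at −2.07 (adjusted p = 0.0466, in a range of 0.0466 to 0.967 over the alternatives). The Arntl call was lost when either replicate of PEAK_140 or of CONS_140 or of CONS_180 was left out (log2 2.14 to 2.50). It was also lost without a variance trend (adjusted p = 0.0595) and with the replicate block (log2 2.78). The fit with the block also lacked CONS_140 replicate 2. The Per1 region at 1.1 kb, with 1.38 (adjusted p = 0.0918, −2.00 after centring), was called without either VEH library (adjusted p = 0.0426 and 0.0419) and in a fit to only the groups compared (0.0453), and Per3, with 2.37 (−1.01 after centring), without CONS_180 replicate 2 (3.72, adjusted p = 0.0363). Their adjusted p ran from 0.0419 to 0.339 and from 0.0363 to 0.961 over the alternatives.

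**Figure D4:**
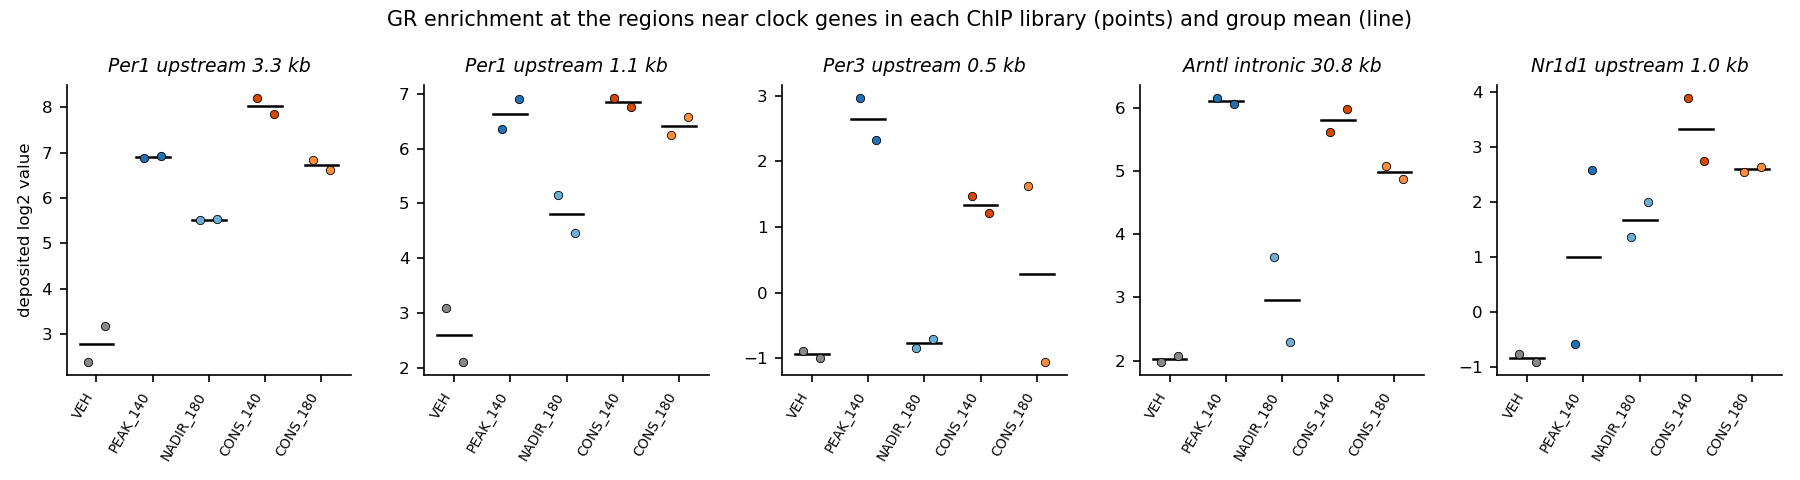
Each panel plots deposited log2 GR enrichment at a region near a clock gene in the 10 libraries, with points for libraries and a bar for the mean of the 2 libraries of a group. Both Per1 regions are above VEH in all 8 CORT libraries as deposited, while after centring each library on its median their differences from VEH at PEAK_140 and CONS_180 were negative and with quantile normalisation positive.

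The GR, pSer2 Pol2 and RNA values can be set side by side for Per1 and Nr1d1. Per1 was called in all 3 assays under both patterns with GR values as deposited, and its pSer2 Pol2 occupancy was highest at CONS_140. Under the pulsatile pattern the pSer2 Pol2 call was at PEAK_140. At NADIR_180, the time of the RNA, the difference of 2.04 was not called, where 0.00522% of all regions were. Both NADIR_180 libraries were above both VEH libraries, and PEAK_140 minus NADIR_180 (1.02) was not called either. Nr1d1 was highest in pSer2 Pol2 at NADIR_180 and highest in RNA in CONS_CORT, both measured at 180 min. The pSer2 Pol2 values of the Nr1d1 region may include polymerase on the overlapping gene Thra. Arntl had GR enrichment in an intron and a called difference in neither RNA nor pSer2 Pol2. Cry1, Cry2, Per2 and Npas2 changed in RNA with no GR region within 50 kb.

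Pairs of clock genes were compared over the 12 RNA libraries by Pearson's r of log2 CPM, as a description, since the libraries share 4 treatments. Nr1d1 and Nr1d2 had the highest r (0.91), followed by Per3 and Nr1d2 (0.86) and by Per3 and Nr1d1 (0.76). Per1 and Cry2 had the lowest (−0.85), then Cry1 and Nr1d1 (−0.72) and Per3 and Arntl (−0.70). Clock had its highest r with Arntl (0.41), and Per1 was near 0 with Per3, Clock and Nr1d1. Within PULS_VEH, replicate 2 was highest for Nr1d1, Nr1d2 and Per3 and lowest for Npas2 and Arntl, while replicate 3 was the reverse for all 5 genes.

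The genes most like Per1, Cry1, Cry2, Npas2 and Nr1d1 were found by the same r over 12 libraries, out of 11642 genes with a mean of at least 1 CPM. Per1 was most like Pfkfb1 (0.98), Edem1 (0.98) and AABR07015559.1 (0.97). For Cry2 these were Rhod (0.96), Hmgn3 (0.96) and Arhgef37 (0.95), and for Npas2 Vom2r37 (0.96), Tmprss4 (0.96) and Zer1 (0.94). Cry1 had Isoc1, Syn1 and Brwd3 (each 0.86). Nr1d1 was most like Nr1d2 (0.91), Dcaf6 (0.87) and Adcy10 (0.86).

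A list of 18 other clock pathway genes, among them kinases, ubiquitin ligase parts and further loop factors, had 15 tested in RNA. Bhlhe41, with 4 reads, was among those not tested. Under PULS 1 of the 15 rose and 1 fell, where 4.23% of all genes were called, with a list median of −0.14. Usp2, a ubiquitin protease known to act on clock proteins, was 2.72, 0.57 and 3.73 CPM in PULS_VEH and 32.5, 31.7 and 22.9 CPM in PULS_CORT. It was 4.15, 3.53 and 1.99 CPM in CONS_VEH and 35.5, 24.6 and 38.9 CPM in CONS_CORT. As with Per1, all 6 CORT libraries of Usp2 exceeded all 6 VEH libraries. Usp2 rose by 3.64 under PULS (adjusted p = 2.04e-05) and by 3.30 under CONS (adjusted p = 3.46e-06). Btrc, part of a ubiquitin ligase that marks Period proteins, fell by 0.59 under PULS (adjusted p = 0.0275).

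Under CONS 3 of the 15 rose and 1 fell, where 9.20% of all genes were called, with a list median of 0.17. Noct (Nocturnin) was 1.34, 1.76 and 0.36 CPM in CONS_VEH and 8.12, 32.1 and 17.2 CPM in CONS_CORT. Noct rose by 4.06 (adjusted p = 0.000377), with each CONS_CORT library above each CONS_VEH library. Under PULS it was 3.62, 0.57 and 0.62 CPM in VEH and 12.3, 4.45 and 4.47 CPM in CORT, also without overlap, and the difference of 2.13 was not called (adjusted p = 0.0829). Csnk1d, a kinase of Period proteins, rose by 0.71 (adjusted p = 0.00102). Its PULS groups were likewise apart (41.2 to 58.5 CPM in VEH, 69.3 to 72.7 CPM in CORT), and the difference of 0.56 (adjusted p = 0.0153) was below 1.5-fold. Arntl2, the relative of Arntl, was 11, 3.75 and 8.51 CPM in CONS_VEH and 1.22, 1.69 and 0.72 CPM in CONS_CORT. Arntl2 fell by 2.67 (adjusted p = 0.00103), again without overlap. Under PULS it ran from 3.02 to 9.13 CPM in VEH and from 1.73 to 2.73 CPM in CORT, apart as well, with a difference of −1.64 that was not called (adjusted p = 0.0534). Neither the difference between patterns nor that between VEH groups was called for any of the 15 by edgeR. In pSer2 Pol2 all 18 were tested, and Usp2 alone was called, rising by 3.51 at PEAK_140 (adjusted p = 0.00771), 4.49 at CONS_140 (adjusted p = 0.00268) and 3.98 at CONS_180 (adjusted p = 0.0101). The shares of all regions called there were 0.989%, 0.788% and 0.214% in that order.

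The D-box factors Dbp, Tef, Hlf and Nfil3, outputs of the clock, were called in 0 of 4 cases in every RNA and pSer2 Pol2 comparison. The share of all features called ran from 0% to 9.20% in RNA and from 0.00522% to 0.989% in pSer2 Pol2. The RNA medians of the 4 factors were −0.40 under PULS and 0.21 under CONS, and Nfil3 came nearest to a call (−0.91, adjusted p = 0.0516 under PULS).

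As a check of the labels, the glucocorticoid targets Fkbp5, Tsc22d3, Tat and Zbtb16 all rose in RNA. Under PULS the differences were 2.09, 2.50, 1.41 and 2.74, and under CONS 2.95, 3.00, 1.82 and 3.44. In pSer2 Pol2 2 of the 4 rose at PEAK_140, where 0.989% of all regions were called. At CONS_140 (0.788% of all) and at CONS_180 (0.214% of all) 3 rose. Limma called 0 of the 4 at NADIR_180, where 0.00522% of all regions were called.

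Liver identity was checked by markers in RNA. All 5 hepatocyte markers were tested, with Alb at a mean of 105489 CPM, and their sum was 97146, 93222 and 136049 CPM in CONS_VEH against 127857 to 145857 CPM in the other 9 libraries. CONS_VEH replicates 1 and 2 thus stood apart, in the control group of the CONS differences of the clock genes, and the CONS_VEH libraries also differed most among themselves over all genes. Of these markers Cps1 rose under both patterns (0.97 and 1.18). All 4 Kupffer cell markers (most abundant Cd163, 107 CPM), all 4 stellate cell markers (Col3a1, 391 CPM) and 3 of 4 endothelial markers (Stab2, 171 CPM) were tested. So were 2 of 4 cholangiocyte markers (Epcam, 9.92 CPM), 2 of 3 erythroid markers (Hbb, 144 CPM) and 1 of 3 lymphocyte markers (Ptprc, 48.9 CPM). Krt19 had 0 reads, and Sox9 and Cd3e 5 each. Pecam1, Hba-a1 and Cd79a were not matched by name. No marker of a cell type other than hepatocytes was called by edgeR in the PULS, CONS, PULS against CONS or VEH comparison. The summed Kupffer cell markers ran from 208 to 292 CPM in PULS_VEH, 224 to 361 in PULS_CORT, 216 to 375 in CONS_VEH and 251 to 285 in CONS_CORT, overlapping throughout. Stellate cell sums were 387 to 523 CPM in PULS_VEH, 358 to 524 in PULS_CORT, 350 to 455 in CONS_VEH and 316 to 341 in CONS_CORT. The last range lay below that of CONS_VEH, and the part of this shift in the CONS differences of the clock genes was not tested.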

How the data were processed

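RNA: raw gene counts were deposited by the authors, who trimmed reads, aligned them to rn6 and counted them with featureCounts 1.6.2 as the submitters' notes state. The 14092 genes whose 12 libraries summed to above 10 reads were tested with edgeR quasi-likelihood after TMM scaling, all groups in 1 fit, and with DESeq2 as the other tool. ChIP: the log2 values per region were deposited by the authors, who cut reads with Trimmomatic 0.36, aligned to rn6, removed duplicates, made tag directories with HOMER 4.9.1 and scaled libraries. Their transform is not named, and the values look shrunken to a floor for each region. The 10 input libraries entered only through the authors' processing. Limma with a variance trend was fitted to the 10 libraries of each antibody over 38315 pSer2 Pol2 regions with tags and 3981 GR regions. Adjustment was by Benjamini-Hochberg over all features of an assay. The authors' own fold changes and p-values were not used.

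Members and gene lists were chosen with earlier results of these data known. All 10 members are named. Where a gene had several pSer2 Pol2 regions, that with the highest mean value was taken, the first by start where equal. GR regions count within 50 kb of a TSS. A name was found for 22747 of the 22929 genes counted. Likeness, given for 5 of the members called in RNA, names the top 3 genes by Pearson's r of log2 CPM (prior count 2) over 12 libraries. From the other lists called genes are named, at most 8 in a comparison.

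Pairing by replicate number was checked by correlation of residuals. Residuals of pSer2 Pol2 libraries with the same number were correlated (6 pairs, r from 0.155 to 0.553). Those of RNA (18 pairs, −0.0488 to 0.0810) and GR (3 pairs, −0.0265 to 0.0237) were near 0. With 2 libraries a group the 6 values are not independent, and the labels do not state a pairing. A replicate block was therefore fitted for pSer2 Pol2 in PEAK_140 against NADIR_180, CONS_180 against NADIR_180 and time by pattern. It called 0 of the 10 members in each. The VEH libraries carry no replicate number, and the responses against VEH had no such fit. Any pairing is thus not dealt with in the Per1 calls in pSer2 Pol2. The code was tested on simulated data. Tools were R 4.3.3, edgeR 4.0.16, limma 3.58.1, DESeq2 1.42.0, Python 3.11.15, pandas 2.3.3, numpy 2.4.6 and matplotlib 3.10.9.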

Additional observations from a re-analysis of the deposited data

Results flagged for a closer look

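Arntl intronic region at 30.8 kb, GR time by pattern: the difference of time effects between the patterns was itself called at 2.32 (SE 0.72, adjusted p = 0.0315, limma; 2.32374 unrounded), where 44.0% of all GR regions were called and their median was 3.11. The call was lost without a variance trend (adjusted p = 0.0595) and in 6 of the 10 fits that left out a library. It was also lost with the replicate block (2.78), in a fit that also lacked CONS_140 replicate 2. The value was −1.06 after median centring and −0.33 with quantile normalisation.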

How the results depend on the processing

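Changes of scaling, filter, model and library set were run for the 10 members, the 5 GR regions and the counts of calls, not for the genes of the other lists, the markers or the direct CORT comparison, and the cause of each change was not tested. The direct comparison of the CORT groups was chosen after the values were seen.

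GR values called in either fit turned in direction with median centring as follows. Per1 at 3.3 kb gave −0.4836 (PEAK_140), −0.1155 (CONS_180), −2.0522 (PEAK_140 against NADIR_180) and −1.6841 (CONS_180 against NADIR_180). Per1 at 1.1 kb gave −0.585, −0.2534, −1.6162 and −1.2846 in the same order. Per3 gave −1.0241 (PEAK_140) and −0.0115 (PEAK_140 against NADIR_180). Arntl gave −0.5266 (PEAK_140), −0.3296 (CONS_140), −1.1062 (CONS_180), −0.2872 (PEAK_140 against NADIR_180), −0.8669 (CONS_180 against NADIR_180) and −1.0639 (time by pattern). Nr1d1 gave −0.6174 (CONS_180). A further 10 values called in neither fit turned negative, 5 of Per3, 2 of Per1, 2 of Nr1d1 and 1 of Arntl, and were negative with quantile normalisation too.

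With quantile normalisation Arntl gave −0.3177 (CONS_180), −0.2815 (CONS_180 against NADIR_180) and −0.3269 (time by pattern), and Nr1d1 −0.1936 (CONS_180). Per1 at 3.3 kb gave −1.2215 (PEAK_140 against NADIR_180), −0.7861 (CONS_180 against NADIR_180) and −2.0652 (time by pattern, from 0.08, called at adjusted p = 0.0466). Per1 at 1.1 kb gave −0.9115 (PEAK_140 against NADIR_180) and −0.4723 (CONS_180 against NADIR_180).

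Counts of called GR regions, of 5: PEAK_140 4, with median centring 0 and quantile normalisation 0. NADIR_180 2, with median centring 0, quantile normalisation 1, no trend 1, only the groups compared 0, overlap with the deposited peak list 0. CONS_140 4, with median centring 0, quantile normalisation 1, no trend 5 and only the groups compared 5. CONS_180 4, with median centring 0 and quantile normalisation 0. PEAK_140 against NADIR_180 4, with median centring 0, quantile normalisation 2 and no trend 3. CONS_180 against NADIR_180 3, with median centring 0, quantile normalisation 0 and no trend 1. Time by pattern 1, with median centring 0, no trend 0, only the groups compared 2 and the replicate block 0. Leaving out a library gave 4 to 5, 1 to 3, 4 to 5, 3 to 4, 3 to 4, 0 to 3 and 0 to 2 in that order. Windows of 10 kb and 100 kb held 4 and 5 regions.

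Counts of called members in pSer2 Pol2, of 10: PEAK_140 1, with no trend 0 and only the groups compared 0. CONS_140 1, with only the groups compared 0. CONS_180 1, with no trend 0 and only the groups compared 0. PEAK_140 against NADIR_180 0, with median centring 1. Leaving out a library gave 0 to 1 for PEAK_140, CONS_140, CONS_180 and time by pattern, and 0 for NADIR_180, PEAK_140 against NADIR_180 and CONS_180 against NADIR_180.

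Counts of called members in RNA, of 10: leaving out a library gave 2 to 4 under PULS, 2 to 5 under CONS, 0 to 1 for PULS against CONS and 0 between VEH patterns. PULS against CONS was 0, with no filter 2 and the CORT groups directly 2.

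The replicate block left RNA member counts at 2, 5, 0 and 0 and took PULS against CONS from 4 to 9 genes. In GR time by pattern it took 1751 regions to 774. Not run for ChIP against VEH, it moved no member's call but Arntl's.

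Counts over all features moved more than 1.5-fold as follows. RNA PULS against CONS went from 4 to 215 (DESeq2), 204 (no filter) and 1 to 289 (a library left out). RNA PULS went from 596 to 354 and 336 without PULS_CORT replicate 1 and 2. RNA VEH patterns went from 0 to 22 (DESeq2), 30 (no filter) and up to 23 (without CONS_VEH replicate 1). In pSer2 Pol2, median centring, quantile normalisation and only the groups compared took 379 to 783, 844 and 0 (PEAK_140), 2 to 15, 2 and 0 (NADIR_180), 302 to 640, 711 and 0 (CONS_140), 82 to 282, 363 and 13 (CONS_180), 184 to 476, 497 and 0 (PEAK_140 against NADIR_180), 65 to 152, 167 and 0 (CONS_180 against NADIR_180) and 22 to 272, 235 and 13 (time by pattern). A library left out gave 19 to 197 (PEAK_140), 0 to 129 (NADIR_180), 24 to 5669 (CONS_140), 0 to 75 (CONS_180), 2 to 202 (PEAK_140 against NADIR_180), 0 to 166 (CONS_180 against NADIR_180) and 0 to 7696 (time by pattern). With only the regions above the middle mean value the counts were 589, 29, 522, 218, 346, 145 and 203 in that order, and time by pattern was 55 with no trend and 41 with the replicate block. In GR, median centring and quantile normalisation took 3204 to 534 and 1039 (PEAK_140), 310 to 0 and 131 (NADIR_180), 2590 to 477 and 771 (CONS_140), 2714 to 327 and 819 (CONS_180), 2757 to 216 and 469 (PEAK_140 against NADIR_180), 1976 to 0 and 169 (CONS_180 against NADIR_180) and 1751 to 40 and 165 (time by pattern). Only the groups compared took NADIR_180 to 0. The regions above the middle mean value gave 1789 (PEAK_140), 1720 (CONS_140), 1723 (CONS_180), 1652 (PEAK_140 against NADIR_180) and 1138 (time by pattern). A library left out gave up to 758 for NADIR_180, and down to 1744 for PEAK_140 against NADIR_180, 949 for CONS_180 against NADIR_180 and 688 for time by pattern.

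Splits of higher and lower calls moved with scaling. In pSer2 Pol2 PEAK_140 140 and 239 became 399 and 445 (quantile), CONS_140 227 and 75 became 408 and 232 (median) or 349 and 362 (quantile), CONS_180 60 and 22 became 224 and 139 (quantile), and CONS_180 against NADIR_180 63 and 2 became 130 and 22 (median) or 127 and 40 (quantile). In GR PEAK_140 3131 and 73 became 103 and 431 or 574 and 465, CONS_140 2575 and 15 became 126 and 351 or 405 and 366, CONS_180 2702 and 12 became 57 and 270 or 417 and 402, PEAK_140 against NADIR_180 2739 and 18 became 32 and 184 or 253 and 216, and time by pattern 1735 and 16 became 4 and 36 or 75 and 90. With quantile normalisation NADIR_180 296 and 14 became 64 and 67, and CONS_180 against NADIR_180 1976 and 0 became 95 and 74.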
